A study of Mus musculus with 16 samples.

Results

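Interferon regulatory factors (IRFs) are a family of transcription factors, and the 8 members described here are Irf1, Irf2, Irf3, Irf4, Irf5, Irf7, Irf8 and Irf9. They were taken by gene symbol from the 53700 annotated features for which reads were counted. All 8 passed the filter on low counts that left 17090 genes for testing. Each symbol stood for 1 feature.

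The RNA came from microglia, the resident macrophages of the brain, of mice labelled as knockouts of Ercc1 (KO) and of mice labelled wt (WT). Ercc1 encodes a subunit of an endonuclease of DNA repair, and the series title presents the animals as a model of accelerated aging. The 4 groups of 4 libraries were KO and WT at 6 weeks of age and KO and WT at 12 weeks. All were of a C57Bl6J/FVB cross, and the labels used here do not name the Ercc1 allele or a tissue to which the loss is limited. Each 6-week group had 2 libraries from males and 2 from females, and each 12-week group 3 from males and 1 from a female. A 12-week WT library carries the replicate label 5_6, and the labels do not say how many animals any library represents, so the spread between libraries may be partly technical. Whole brain was sorted for live, Ly6c-negative cells of intermediate CD45 and high CD11b staining, and bulk RNA was sequenced after a low-input library preparation.

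IRF proteins bind DNA through a conserved amino-terminal domain. IRF3, IRF5 and IRF7 wait in the cytoplasm and move to the nucleus after phosphorylation downstream of sensors of nucleic acids and of Toll-like receptors, and IRF3 and IRF7 then switch on type I interferon genes. IRF9 acts after interferon has bound its receptor: with STAT partners it forms the complex ISGF3, which binds the interferon-stimulated response element (ISRE). IRF1 is induced by interferons, in part through gamma-activated sites (GAS), and activates antigen presentation genes, whereas IRF2 competes with it at shared sites. IRF8 and IRF4 pair with the factor PU.1 or with BATF factors in immune cells, and IRF8 is needed for normal development of microglia.

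Promoter sequences from RefSeq (build GRCm38.p6) cover the 250 bases upstream of a transcription start, and all 8 members matched an entry. Those of Irf7 and Irf9 are shown because these 2 members passed the test between genotypes. Those of Irf1 and Irf2 are shown as examples with matches to the searched motifs. Irf8 also held matches, and its windows are not shown. The Irf7 window is chr7:141266425-141266674 on the minus strand, Irf9 is chr14:55603735-55603984, Irf1 is chr11:53769764-53770013 and Irf2 is chr8:46739495-46739744, the last 3 on the plus strand. For Irf9 and Irf1 the first of 2 annotated starts is shown. Capitals mark a match to the ISRE letters, GAAA followed by 2 bases of any kind and GAAA, or to the GAS letters, TTC followed by 3 bases of any kind and GAA, both searched on both strands, and the sequences read 5′ to 3′.
Irf7: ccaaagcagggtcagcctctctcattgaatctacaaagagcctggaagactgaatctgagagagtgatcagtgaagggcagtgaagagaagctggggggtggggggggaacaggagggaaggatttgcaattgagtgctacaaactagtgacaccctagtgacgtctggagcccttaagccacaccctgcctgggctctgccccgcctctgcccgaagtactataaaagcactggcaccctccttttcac
Irf9: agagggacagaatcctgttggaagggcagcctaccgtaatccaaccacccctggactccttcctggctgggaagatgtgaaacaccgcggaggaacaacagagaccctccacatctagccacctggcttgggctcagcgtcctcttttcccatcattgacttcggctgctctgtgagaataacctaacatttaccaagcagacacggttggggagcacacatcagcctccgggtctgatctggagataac
Irf1: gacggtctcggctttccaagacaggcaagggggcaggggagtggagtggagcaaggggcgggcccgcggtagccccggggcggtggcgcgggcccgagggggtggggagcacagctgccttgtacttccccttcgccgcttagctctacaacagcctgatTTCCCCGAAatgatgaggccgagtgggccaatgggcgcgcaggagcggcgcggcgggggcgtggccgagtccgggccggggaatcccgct
Irf2: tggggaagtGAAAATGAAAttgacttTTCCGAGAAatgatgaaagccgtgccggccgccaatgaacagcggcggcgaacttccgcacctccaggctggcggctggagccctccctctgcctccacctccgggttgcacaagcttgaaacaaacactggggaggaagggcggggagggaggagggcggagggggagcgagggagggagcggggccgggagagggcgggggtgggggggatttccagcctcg

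The Irf2 window held the ISRE match GAAAATGAAA at positions -241 to -232 from the start and the GAS match TTCCGAGAA at -224 to -216. The Irf1 window held the GAS match TTCCCCGAA at -90 to -82. The Irf8 window at its first start held 2 GAS matches, TTCTCGGAA and TTCAGAGAA. The letters did not occur in the windows of Irf3, Irf4, Irf5, Irf7 and Irf9. Of 32851 windows of the same length in the RefSeq set, 1.53% held the ISRE letters and 7.02% the GAS letters, and the 2 motifs did not overlap each other in Irf2. A match describes letters and not a bound site.

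Read totals lay between 7882182 and 22142972 counts per library, and between 17249 and 21472 genes had a count. Ercc1 was at 2.82, 4.53, 4.05 and 3.10 CPM in 6-week KO libraries, against 13.5, 15.95, 15.2 and 30.5 CPM in 6-week WT libraries, and at 5.85, 0.424, 4.05 and 6.76 CPM in 12-week KO libraries, against 7.45, 15.0, 11.2 and 49.1 CPM in 12-week WT libraries. CPM are counts scaled to library sizes that were adjusted by TMM. Every KO library was below every WT library of its age. Microglial identity was checked with 10 markers, all of them present in every group. Their summed level ran from 59700 to 70140 CPM in 6-week KO, against 71610 to 78400 CPM in 6-week WT, and from 51260 to 53890 CPM in 12-week KO, against 64960 to 72600 CPM in 12-week WT. Of these markers P2ry12 fell at 6 weeks, and P2ry12, Gpr34 and Cx3cr1 fell at 12 weeks in edgeR.

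The family was led by Irf8 and Irf5 in every group when CPM were divided by exon length. On this per-length scale, in CPM per kb, Irf8 averaged 87.7 ± 10.03 in 6-week KO and 87.8 ± 4.45 in 6-week WT, and 82.2 ± 7.21 in 12-week KO and 77.1 ± 15.2 in 12-week WT (SD, n = 4 each). Irf5 averaged 77.9 ± 4.24 and 97.9 ± 9.95 in the 6-week KO and WT groups, and 66.6 ± 11.3 and 72.9 ± 12.1 in the 12-week KO and WT groups. The libraries of Irf8 and Irf5 overlapped each other in all 4 groups, and both lay clear of the member ranked next. Exon lengths came from an annotation of build GRCm38, whereas the counts were made on GRCm39, so these levels are approximate.

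**Figure D1:**
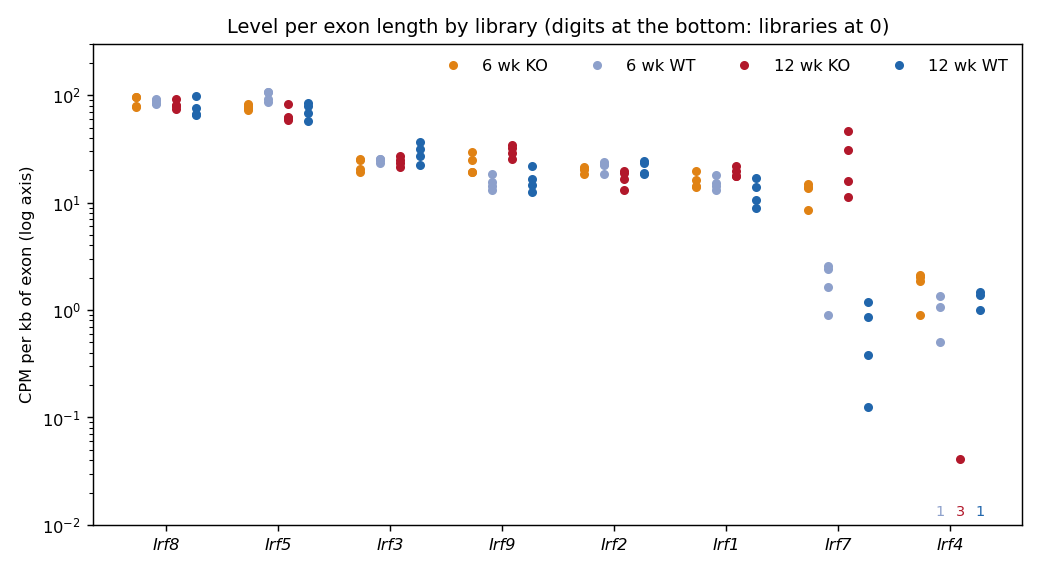
Level of each member in CPM per kb of exon on a log axis, 1 point per library, with KO left of WT at 6 and then at 12 weeks and the number of libraries at 0 printed at the bottom. Irf8 and Irf5 sit highest in all 4 groups, and the Irf7 points of both KO groups lie above those of both WT groups.

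Below them, Irf3, Irf9, Irf2 and Irf1 formed a middle group with means between 12.7 and 30.4 CPM per kb. Neighbouring members in this stretch overlapped in their libraries in every group. Irf7 changed its place in the order. It ranked 7 of 8 in 6-week KO and in 6-week WT, 4 of 8 in 12-week KO and 8 of 8 in 12-week WT. It made up 4.84% of the summed per-length level of the family in 6-week KO, against 0.708% in 6-week WT, and 9.85% in 12-week KO, against 0.277% in 12-week WT. In 12-week KO the Irf7 libraries overlapped those of Irf9 and Irf3, its neighbours in the order. Irf4 was lowest in 3 of the groups.

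**Figure D2:**
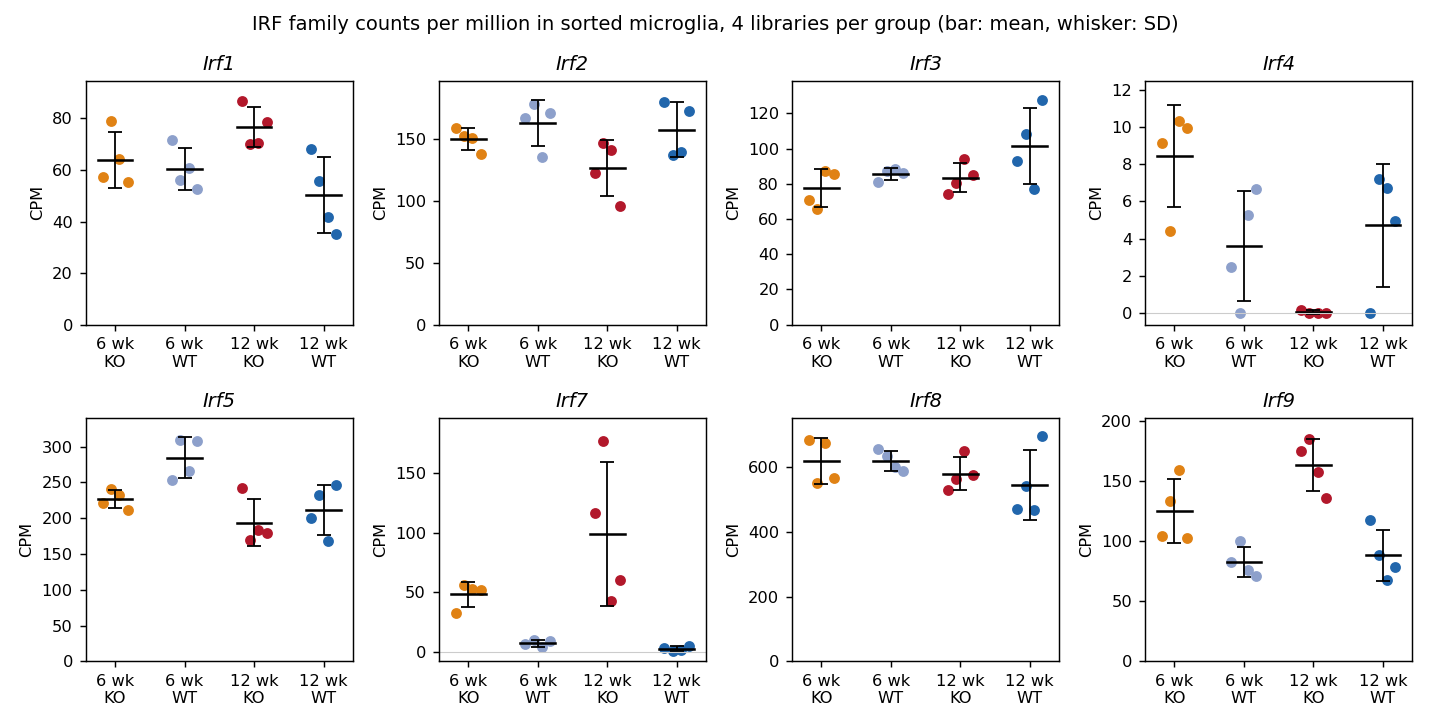
CPM of the 8 members, 1 point per library, with KO left of WT at 6 and then at 12 weeks and with the mean and SD of 4 libraries as bar and whisker. Each panel has its own linear axis, and the KO and WT points are apart at both ages for Irf7 and Irf9.

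Among the members activated downstream of nucleic acid sensing, Irf7, the amplifier of the type I interferon response, was higher in KO microglia at both ages. In bulk RNA a change in the share of cells that use a gene and a change in RNA per cell cannot be told apart. Irf7 (ENSMUSG00000025498) was at 32.0, 55.8, 52.5 and 51.6 CPM in 6-week KO libraries, against 6.13, 9.80, 3.39 and 9.08 CPM in 6-week WT libraries. The groups did not overlap, and 3 of the KO libraries lay close together while replicate 1 was lower. The log2 change was 2.77 ± 0.56 (SE), a fold of 6.83, with an adjusted p of 0.0266 in edgeR's quasi-likelihood test with Benjamini-Hochberg adjustment over all genes tested. With 1 of the 6-week libraries left out at a time, Irf7 passed only without KO replicate 1, with adjusted p between 0.0370 and 0.1099 over these 8 refits.

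At 12 weeks Irf7 was at 117, 177, 42.3 and 60.3 CPM in KO libraries, against 3.24, 0.474, 1.44 and 4.53 CPM in WT libraries. The KO libraries spread widely, with replicates 1 and 2 well above replicates 3 and 4, yet the lowest KO library was still above every WT library. The log2 change was 5.37 ± 0.63, a fold of 41.4, with an adjusted p of 0.000152 in edgeR. This call passed in all 25 alternative fits, with log2 changes between 4.96 and 6.62. Between the ages the genotype effect differed by 2.60 ± 0.78 on the log2 scale, with an unadjusted p of 0.00454 and an adjusted p of 0.853 in edgeR.

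Irf3, which is present before infection and starts the first wave of interferon-beta, gave 70.8, 65.8, 87.5 and 85.6 CPM in 6-week KO libraries, against 80.9, 87.4, 88.6 and 86.2 CPM in 6-week WT libraries. At 12 weeks it gave 74.2, 80.5, 94.2 and 85.2 CPM in KO libraries, against 93.0, 108, 77.1 and 127 CPM in WT libraries. The groups overlapped at both ages. The log2 changes were -0.15 (95% interval -0.46 to 0.17) at 6 weeks and -0.28 (-0.59 to 0.03) at 12 weeks, with adjusted p of 1.00 and 0.471 in edgeR.

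Irf5, which acts below Toll-like receptors and activates inflammatory cytokine genes, was at 221, 240, 232 and 212 CPM in 6-week KO libraries, against 253, 310, 266 and 308 CPM in 6-week WT libraries. Every 6-week KO library was below every 6-week WT library, but the log2 change of -0.33 ± 0.14 did not pass (adjusted p = 0.560 in edgeR). At 12 weeks Irf5 was at 242, 170, 183 and 180 CPM in KO libraries, against 200, 233, 168 and 246 CPM in WT libraries. These groups overlapped, and the log2 change was -0.13 ± 0.14 (adjusted p = 0.791 in edgeR).

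Irf9, the DNA-binding subunit of ISGF3, was at 105, 134, 159 and 103 CPM in 6-week KO libraries, against 83.2, 100.2, 76.2 and 71.3 CPM in 6-week WT libraries. The groups did not overlap, although the lowest KO and the highest WT library lay close together. The log2 change of 0.58 ± 0.16 missed the threshold (adjusted p = 0.152 in edgeR). At 12 weeks Irf9 was at 175, 186, 158 and 137 CPM in KO libraries, against 118, 88.8, 68.0 and 78.5 CPM in WT libraries. Every KO library was above every WT library, and the gap was wider than at 6 weeks. Irf9 (ENSMUSG00000002325) rose by 0.92 ± 0.16 on the log2 scale, a fold of 1.89, with an adjusted p of 0.00396 in edgeR. A fit on the 8 libraries of that age alone gave 0.93 with an adjusted p of 0.0548 in edgeR, past the threshold no longer. With a block on the replicate number the log2 change was 0.59 (adjusted p = 0.261 in edgeR), which did not pass either. That block leaves only WT replicates 3 and 4 to the comparison, since the labels 5_6 and 8 occur in single WT libraries alone.

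Irf1, an activator of antigen presentation and interferon-gamma responses, was at 57.2, 79.2, 64.4 and 55.3 CPM in 6-week KO libraries, against 71.8, 56.3, 60.7 and 52.7 CPM in 6-week WT libraries. The groups overlapped, with a log2 change of 0.07 ± 0.19 (adjusted p = 1.00 in edgeR). At 12 weeks Irf1 was at 86.6, 70.2, 70.6 and 78.7 CPM in KO libraries, against 68.1, 55.9, 41.9 and 35.3 CPM in WT libraries. All 4 KO libraries were above all 4 WT libraries, but the lowest KO library and the highest WT library nearly met. The log2 change was 0.63 ± 0.19 (adjusted p = 0.108 in edgeR), which did not pass.

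Irf2, its competitor at shared sites, was at 159, 152, 151 and 138 CPM in 6-week KO libraries, against 167, 178, 136 and 171 CPM in 6-week WT libraries. At 12 weeks it was at 122, 146, 141 and 96.1 CPM in KO libraries, against 180, 137, 139 and 172 CPM in WT libraries. The groups overlapped at both ages. The log2 changes were -0.12 ± 0.14 and -0.31 ± 0.14 (adjusted p = 1.00 at 6 weeks and 0.332 at 12 weeks in edgeR).

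Irf8, the partner of PU.1 in myeloid cells, was at 685, 549, 674 and 566 CPM in 6-week KO libraries, against 657, 633, 600.1 and 588 CPM in 6-week WT libraries. At 12 weeks it was at 529.8, 563, 650.2 and 575 CPM in KO libraries, against 471, 542, 467 and 697 CPM in WT libraries. No order between the genotypes was visible at either age. The log2 difference was -0.0024 (95% interval -0.25 to 0.24) at 6 weeks and 0.09 (-0.15 to 0.34) at 12 weeks.

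Irf4, which acts in lymphocytes and in alternatively activated macrophages, was rare, and its counts are given instead of CPM. It had 94, 77, 97 and 173 counts in 6-week KO libraries, against 23, 0, 67 and 55 counts in 6-week WT libraries. It had 2, 0, 0 and 0 counts in 12-week KO libraries, against 0, 76, 154 and 47 counts in 12-week WT libraries. Detection was thus near 0 throughout the 12-week KO group, while 1 WT library at each age also had no count. A count of 0 allows up to 0.318, 0.369 and 0.375 CPM in these 3 KO libraries by counting error alone.

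The ratio of pooled Irf4 CPM, KO over WT, was 0.0106 at 12 weeks, with a counting interval of 0.00128 to 0.0387. The intervals cover counting error only, since reads without molecular identifiers are not independent molecules. The adjusted p was 0.0533 in edgeR at 12 weeks, and the groups overlapped at 0. Over the 8 refits that left out 1 library of that age the adjusted p ran from 0.0192 to 0.151, and Irf4 passed in 1 of them, without WT replicate 3, the WT library at 0. Over all alternatives it passed in 6 of 24. At 6 weeks the ratio was 2.18 (1.80 to 2.64), with overlapping groups and an adjusted p of 0.990 in edgeR.

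**Figure D3:**
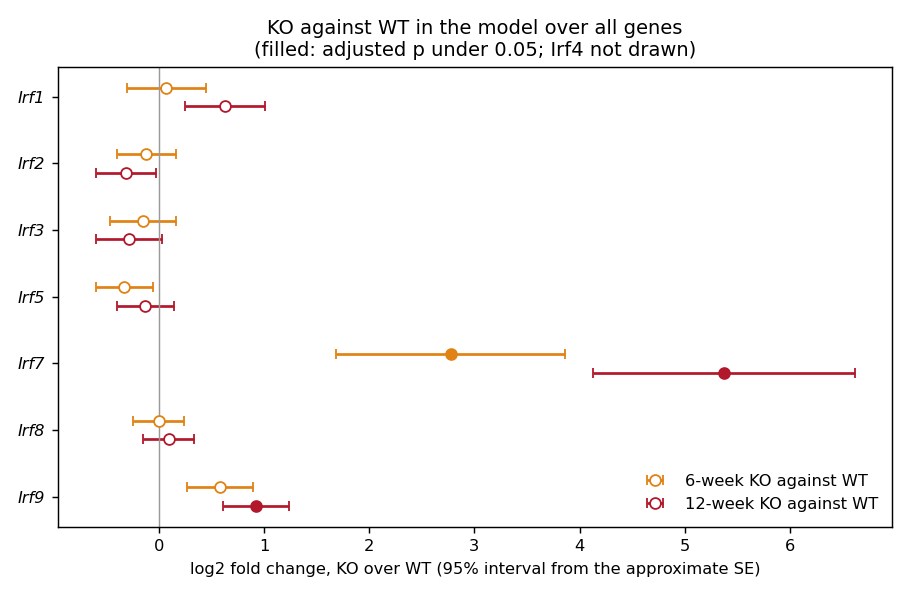
Log2 fold change of 7 members, KO over WT, with the 95% interval from an approximate SE and filled symbols for an adjusted p under 0.05. Irf7 is filled at both ages, at 2.77 and 5.37, and Irf9 at 12 weeks, at 0.92.

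Of the 8 members, 1 passed at 6 weeks, against 0.872% of all genes tested, and 2 passed at 12 weeks, against 2.98%. The groups did not overlap for 3 members at 6 weeks, Irf5, Irf7 and Irf9, against 7.87% of all genes, and for 3 at 12 weeks, Irf1, Irf7 and Irf9, against 8.20%. The median log2 change over the members was 0.03 at 6 weeks and -0.02 at 12 weeks, beside -0.02 and -0.03 over all genes. The study's title already names IRF7 and IRF9, so their calls are not independent of that choice. In exact permutation tests over the libraries, two-sided and 1 per member and age, the smallest p that 4 against 4 libraries allow is 0.0286. Irf7 and Irf9 at both ages, Irf1 at 12 weeks and Irf5 at 6 weeks reached it, and each became 0.0762 when adjusted over these 16 exact tests.

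Between the ages no member passed in edgeR. In KO microglia 0 of 8 passed for 12 against 6 weeks, against 0.0234% of all genes, and 2 members had an unadjusted p under 0.05, Irf4 and Irf9, against 8.80% of all genes. DESeq2 also called 0. The Irf4 groups did not overlap, as those of 6.57% of all genes, with a ratio of pooled CPM, 12 over 6 weeks, of 0.00697 (counting interval 0.000842 to 0.0253; adjusted p = 0.124 in edgeR). Irf9 had a log2 change of 0.50 ± 0.16 (adjusted p = 0.350 in edgeR) and Irf7 of 1.00 ± 0.55 (adjusted p = 0.670 in edgeR), both with overlapping groups.

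In WT microglia 0 of 8 passed, against 0.0117% of all genes, and 2 had an unadjusted p under 0.05, Irf5 and Irf7, against 7.44%. DESeq2 also called 0. Irf5 was lower in every 12-week than in every 6-week WT library, as groups did not overlap for 5.30% of all genes, with a log2 change of -0.43 ± 0.14 (adjusted p = 0.455 in edgeR). Irf7 had a log2 change of -1.60 ± 0.58 (adjusted p = 0.522 in edgeR) with overlapping groups. For the difference of the genotype effects between the ages, 0 of 8 passed in edgeR, against 0.00585% of all genes, with 2 members at an unadjusted p under 0.05, Irf4 and Irf7, against 4.74%. DESeq2 called 1, Irf4. These comparisons share libraries with those between the genotypes.

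Upstream of the family, 24 sensors, adaptors and kinases that activate IRF3, IRF5 and IRF7 were tested. Over all genes tested, 0.796% rose and 0.0761% fell at 6 weeks, and 2.03% rose and 0.954% fell at 12 weeks. Of this list, at 6 weeks 1 rose, 0 fell and 23 did not pass, and at 12 weeks 1 rose, 1 fell and 22 did not pass. The median log2 change of the list was 0.11 at 6 weeks and 0.05 at 12 weeks. The gene that rose at both ages was Zbp1, a sensor of left-handed nucleic acid helices, with 14.9 ± 4.10 CPM in 6-week KO and 0.142 ± 0.285 CPM in 6-week WT. At 12 weeks Zbp1 averaged 19.98 ± 16.1 CPM in KO and 0.120 ± 0.241 CPM in WT (SD, n = 4 each; adjusted p = 0.0171 at 6 weeks and 0.00453 at 12 weeks in edgeR). The 6-week call was lost without WT replicate 1, 3 or 4 or without KO replicate 3. Sting1, the adaptor of the DNA sensor cGAS, averaged 808 ± 14.8 CPM in 12-week KO and 1004 ± 45.6 CPM in 12-week WT. It fell by 0.31 on the log2 scale (adjusted p = 0.0274 in edgeR), and the call was lost in each refit without 1 of the 12-week libraries and in 4 of the 8 without a 6-week library.

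Interferon genes themselves were almost without counts. The 18 type I interferon loci held 36 counts in 6-week KO, from 2 loci and at most 25 in 1 library, against 0 counts in 6-week WT. They held 27 counts in 12-week KO, all from 1 library, against 3 counts in 12-week WT. Ifng, the type II interferon, had 11 counts in 1 of the 12-week KO libraries and no count elsewhere, and both type III loci had none. Ifnb1, which encodes interferon-beta, had 29 counts in 6-week KO, against 0 counts in 6-week WT, and 27 counts in 12-week KO, against 0 counts in 12-week WT. It did not pass the filter on low counts, so the difference between the genotypes was not tested.

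Downstream of interferon, Stat2, a partner of IRF9 in ISGF3, rose at 12 weeks. Stat2 averaged 69.3 ± 25.1 CPM in 12-week KO and 22.8 ± 6.79 CPM in 12-week WT, a log2 change of 1.60 ± 0.32 (adjusted p = 0.0102 in edgeR). At 6 weeks Stat2 gave 54.8 ± 18.2 CPM in KO and 36.6 ± 6.83 CPM in WT (adjusted p = 0.773 in edgeR). The receptor chains Ifnar1 and Ifnar2 had log2 changes of 0.53 and 0.37 at 12 weeks, and neither passed.

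**Figure D4:**
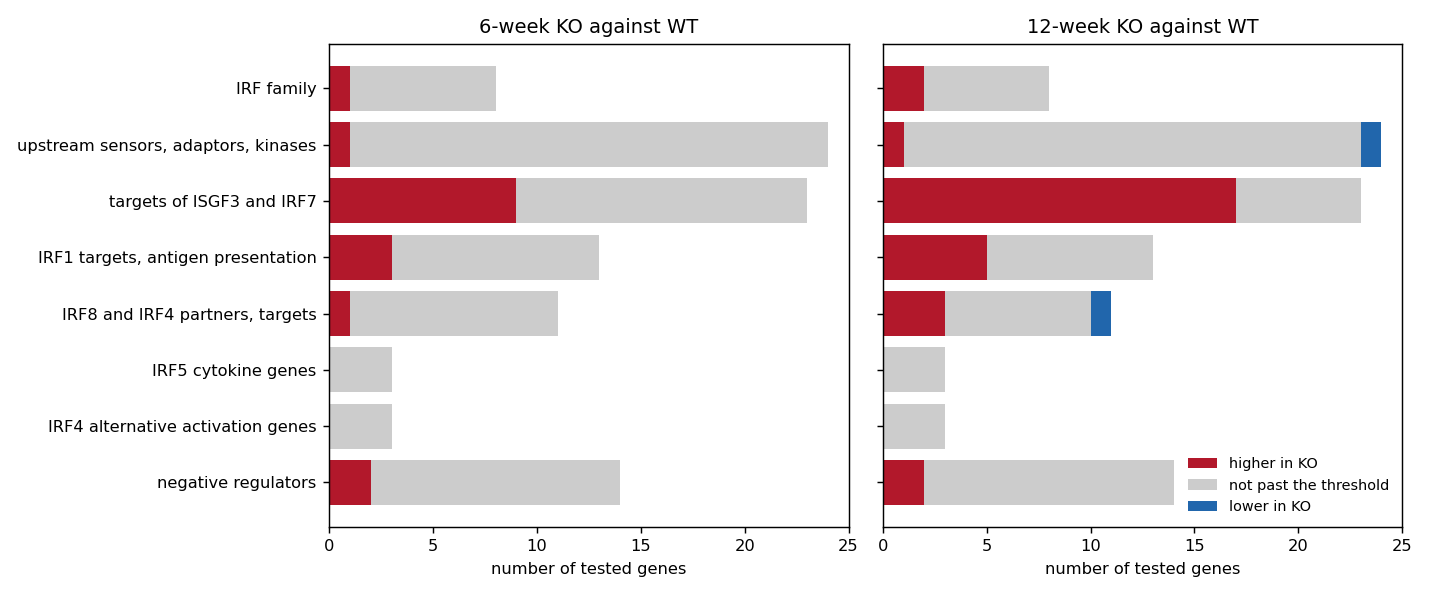
Number of tested genes of each pathway list that were higher in KO, did not pass, or were lower in KO, at 6 weeks on the left and 12 weeks on the right. The targets of ISGF3 and IRF7 have 9 of 23 genes higher at 6 weeks and 17 of 23 at 12 weeks.

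Targets of ISGF3 and IRF7 were the list with the most calls. Of 26 genes 23 passed the filter, and of these 9 rose and 14 did not pass at 6 weeks, and 17 rose and 6 did not pass at 12 weeks. A gene that is silent in WT could enter only through KO libraries, so these counts describe the tested genes and not the whole list. The median log2 change was 3.32 at 6 weeks and 4.22 at 12 weeks. Markers of border-associated macrophages were also higher in KO, with medians of 1.63 and 2.14, and their part in this result was not tested. Without 12-week WT replicates 3 and 8 the 12-week count was 12, and without 12-week KO replicate 2 it was 15. Leaving out those 2 WT libraries also ended the 12-week calls of Oas2, Cxcl10, Stat2 and Il12b. Rsad2, which encodes the antiviral enzyme viperin, averaged 33.9 ± 28.9 CPM in 12-week KO and had no count in 12-week WT, at least 616-fold higher against a floor of 3 counts over the WT group. Oas2, which makes the messenger that activates RNase L, averaged 36.5 ± 13.5 CPM in 12-week KO and had no count in 12-week WT. Against the same floor Oas2 was 653-fold higher (lower counting limit 530.5). Such limits cover counting error only and not the spread between libraries.

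Cxcl10, a chemokine that attracts T cells, averaged 42.7 ± 41.0 CPM in 12-week KO and 0.281 ± 0.452 CPM in 12-week WT (adjusted p = 0.00504 in edgeR). At 6 weeks it averaged 9.60 ± 5.90 CPM in KO and had no count in WT, 113-fold higher against the floor (lower counting limit 91.3). The 6-week call of Cxcl10 was lost with limma-voom, without any 1 of the WT replicates and without KO replicate 1 or 3. Oas genes have close copies, and how reads shared between copies were counted is not given in the sources used here, so their sizes are uncertain.

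**Figure D5:**
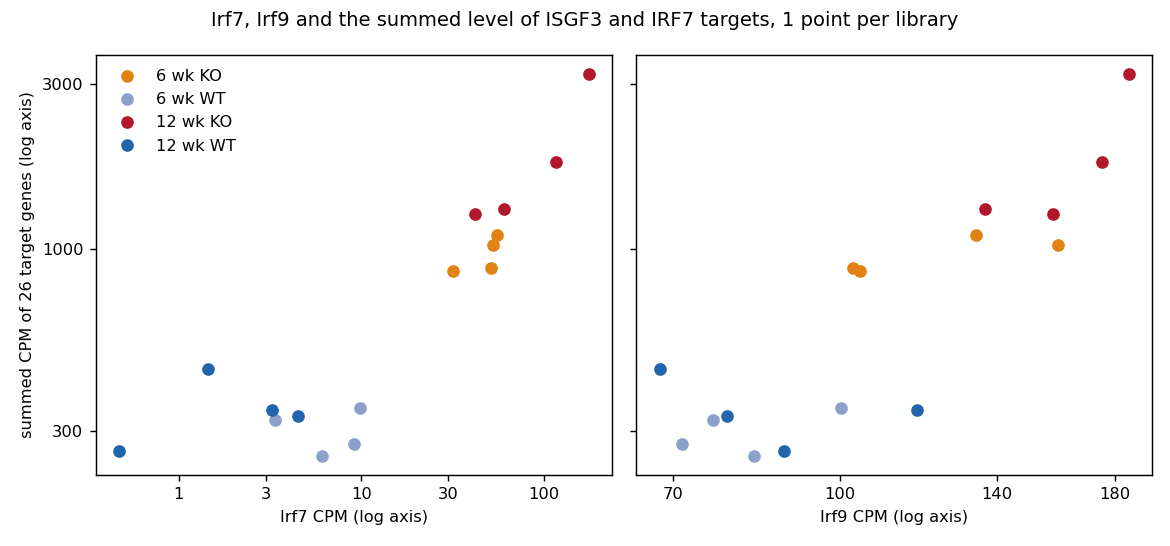
Summed CPM of the 26 listed targets of ISGF3 and IRF7 against the CPM of Irf7 (left) and Irf9 (right) on log axes, 1 point per library. The KO libraries sit higher, from 869 to 3208 CPM of summed targets, apart from the WT libraries at 254 to 452 CPM. By Irf7 they also lie to the right of all WT libraries. By Irf9, 6-week KO replicates 1 and 4 lie to the left of 12-week WT replicate 3.

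The summed level of the 26 targets was 869, 1096, 1029 and 882 CPM in 6-week KO libraries, against 254, 348, 322 and 275 CPM in 6-week WT libraries. It was 1784, 3208, 1268 and 1310.0 CPM in 12-week KO libraries, against 344, 262, 452 and 330 CPM in 12-week WT libraries. Within the 12-week KO group the libraries had the same order by Irf7 and by summed targets, replicate 2 first, then 1, 4 and 3. By Irf9 the order was 2, 1, 3 and 4. With 4 libraries this is a description. The 1 female library of this group, replicate 3, was the lowest by Irf7 and by the targets. In 6-week KO, by contrast, the female libraries, replicates 2 and 3, were the highest by both.

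Of 13 genes that IRF1 activates in antigen presentation, 3 rose at 6 weeks and 5 rose at 12 weeks, with none lower, and the medians were 0.49 and 1.43 on the log2 scale. H2-D1, a classical MHC class I heavy chain, averaged 1603 ± 190.4 CPM in 6-week KO and 463 ± 25.3 CPM in 6-week WT, and 2662 ± 898 CPM in 12-week KO and 400.5 ± 29.5 CPM in 12-week WT. H2-K1, another such chain, averaged 978 ± 298 CPM in 12-week KO and 190.2 ± 30.5 CPM in 12-week WT. Both passed at both ages in all alternative fits, and as similar genes they may share reads. Tap1, a peptide transporter, averaged 77.9 ± 21.0 CPM in 12-week KO and 23.2 ± 8.65 CPM in 12-week WT, a log2 change of 1.76 ± 0.28 (adjusted p = 0.00211 in edgeR). At 6 weeks Tap1 did not pass, with a log2 change of -0.03 ± 0.28. The levels of Irf1 itself are given above, and it did not pass at either age.

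Among 11 tested partners and targets of IRF8 and IRF4, 1 rose at 6 weeks, and 3 rose and 1 fell at 12 weeks. Cybb, the catalytic subunit of the phagocyte NADPH oxidase, averaged 138 ± 66.3 CPM in 12-week KO and 4.70 ± 4.70 CPM in 12-week WT (log2 change 4.83 ± 1.00, adjusted p = 0.0137 in edgeR). Il12b, a subunit of interleukins 12 and 23, averaged 23.4 ± 28.5 CPM in 12-week KO and had no count in 12-week WT. Against the floor Il12b was 420.5-fold higher (lower counting limit 341.2), and its call was lost without 12-week KO replicate 2. Il12b had no count in 6-week WT either, so it passed the filter only through KO libraries, and its place in the count describes the tested genes alone. Ctss, a lysosomal protease, rose at both ages, by 0.46 ± 0.09 and 0.63 ± 0.09 on the log2 scale (adjusted p = 0.0307 and 0.00109 in edgeR), and the 6-week call was lost without WT replicate 1, 2 or 4 or without KO replicate 1, 3 or 4 of that age, and without 12-week WT replicate 5_6 or 12-week KO replicate 1 or 4. Cx3cr1, the fractalkine receptor of microglia, fell by 0.48 at 12 weeks (adjusted p = 0.00332 in edgeR), a call lost in the fit on the 8 libraries of that age. Spi1, which encodes PU.1, had log2 changes of 0.25 ± 0.17 and 0.32 ± 0.17 and did not pass.

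None of the 3 tested cytokine genes with a role of IRF5 and none of the 3 tested alternative activation genes with a role of IRF4 passed at either age in the edgeR fit on filtered genes. An unadjusted p under 0.05 was reached by 0 and 2 of the cytokine genes at 6 and 12 weeks and by 1 and 2 of the alternative activation genes. The share of all genes at that level is not given here, so these counts cannot be set against it. DESeq2 called 0 of the cytokine genes at both ages, and 0 at 6 weeks and 2 at 12 weeks of the alternative activation genes. The edgeR fit without a filter called 1 gene of each list at 6 weeks and 2 of each at 12 weeks, and limma-voom called 2 cytokine genes at 12 weeks. Tnf, an inflammatory cytokine, had log2 changes of 2.64 ± 1.33 at 6 weeks and 3.29 ± 1.43 at 12 weeks, and Mrc1, the mannose receptor, of 1.57 ± 0.66 and 2.25 ± 0.67. Of 14 negative regulators 2 rose at each age, Usp18 and Isg15, which also stand in the list of targets. Usp18, a protease that removes ISG15 and dampens the interferon receptor, averaged 114 ± 62.6 CPM in 12-week KO and 11.8 ± 6.70 CPM in 12-week WT. Isg15, a ubiquitin-like modifier, averaged 48.7 ± 32.0 CPM in 12-week KO and 6.50 ± 2.35 CPM in 12-week WT. With limma-voom neither passed at 6 weeks, and the 6-week call of Isg15 was also lost without WT replicate 2 or 3.

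The genes whose pattern over the 16 libraries lay closest to Irf7 were Il2rg, the shared gamma chain of interleukin receptors, Cst7, a protease inhibitor, and Rtp4, a chaperone that interferon induces. Likeness was the root mean squared difference between gene-centred log2 CPM among 9838 candidate genes. It was 0.916 for Il2rg, 0.927 for Cst7 and 1.04 for Rtp4, where the median candidate had 2.35. Il2rg averaged 48.5 CPM in 6-week KO and 6.25 CPM in 6-week WT, and 82.0 CPM in 12-week KO and 4.70 CPM in 12-week WT. The genes closest to Irf9 were Lsp1, an actin-binding protein of leukocytes, at 0.209, Lat2, a signalling adaptor, at 0.216, and Cd34, a surface sialomucin, at 0.219, with a median of 0.681. The points share libraries and depth, and likeness is a description.

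Markers of border-associated macrophages, which usually stain higher for CD45 than the gate allowed, were mostly higher in KO, as were Irf7 and Irf9. Of 10 such markers 9 had a positive log2 change at each age, with a median of 1.63 at 6 weeks and 2.14 at 12 weeks, beside -0.02 and -0.03 over all genes. Cd163, a scavenger receptor, averaged 11.1 ± 5.84 CPM in 6-week KO and 1.55 ± 1.34 CPM in 6-week WT, and 11.1 ± 6.36 CPM in 12-week KO and 0.355 ± 0.711 CPM in 12-week WT (adjusted p = 0.561 and 0.0665 in edgeR). The exception was Stab1, the most abundant marker, with 184 ± 32.8 CPM in 6-week KO and 229 ± 42.2 CPM in 6-week WT, and 142 ± 29.5 CPM in 12-week KO and 216 ± 40.1 CPM in 12-week WT. The 10 markers, Stab1 included, had summed levels of 313 to 493 CPM in 6-week KO, against 253 to 325 CPM in 6-week WT. At 12 weeks the sums were 282 to 390 CPM in KO, against 224 to 273 CPM in WT. Within 12-week KO they were 282, 305, 322 and 390 CPM in replicates 1 to 4. Of these markers Ccl8 passed at 6 weeks, and Ccl8 and Ms4a7 passed at 12 weeks, all higher in KO. Monocyte markers, 8 in number, summed to 8.72 to 41.5 CPM in 6-week KO, against 5.70 to 23.5 CPM in 6-week WT, and to 18.3 to 41.1 CPM in 12-week KO, against 4.43 to 19.6 CPM in 12-week WT. Ly6c2 was at 0 in both KO groups and in 12-week WT, with 3 counts in 6-week WT, and the sort had excluded Ly6c-positive cells. The 3 monocyte markers that could be tested had a median log2 change of 1.26 at 6 weeks and 1.31 at 12 weeks. Of these 3 were positive at 6 weeks and 2 at 12 weeks, and none passed. The part of these cells in the results on Irf7, Irf9 and their targets was not tested. Markers of T and NK cells summed to at most 7.40 CPM in any library. The 8 markers of conventional dendritic cells summed to 17.1 to 30.9 CPM in 6-week KO, against 21.1 to 29.3 CPM in 6-week WT. At 12 weeks they summed to 16.9 to 46.1 CPM in KO, against 11.8 to 28.4 CPM in WT. Clec9a was at 0 throughout. Of the 6 that could be tested, 2 had a positive log2 change at 6 weeks and 4 at 12 weeks, and none passed. Clec10a averaged 4.74 and 0.851 CPM in 6-week KO and WT, and 5.01 and 1.00 CPM in 12-week KO and WT. Xcr1 went the other way, with 1.03 and 1.55 CPM in 6-week KO and WT, and 0.125 and 2.97 CPM in 12-week KO and WT. Of the 8 markers of plasmacytoid dendritic cells, which make much interferon, Klk1 and Spib were at 0 in all 4 groups, and none of the 4 that could be tested passed at either age.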

How the data were processed

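RNA was measured in 16 libraries of sorted mouse microglia, 4 per group. The authors deposited raw counts per gene and library, with an Ensembl identifier and a symbol. A deposited table of the whole series held the same counts for all 36935 symbols compared and served for that comparison alone. Per the submitters' processing notes, the build was GRCm39 and the tools included HTSeq 0.11.0, TopHat, cutadapt 2.10, FastQC 0.11.9, Picard 2.13.2 and SAMtools 1.10. How strand, annotation release and multimapping reads were handled is not given in the sources used here, so genes with close copies or overlapping neighbours are uncertain.

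From these counts, edgeR 4.0.16 in R 4.3.3 kept genes with filterByExpr by group (minimum count 10), scaled libraries by TMM and fitted a quasi-likelihood model with a term per group and a term for sex to all 16 libraries. Two-sided P values were adjusted over 17090 genes (Benjamini-Hochberg), with a threshold of 0.05. The SE is approximate, the absolute log2 change over the square root of the F statistic, and for genes with few counts the fitted change depends on the prior. Counting intervals have a confidence level of 0.95, and a fold against a group without counts uses a floor of 3 counts over that group. The edgeR and limma-voom fits were run on counts simulated from the fitted spread, and the outcome is not reported here.

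Alternatives were DESeq2 1.42.0, limma-voom (limma 3.58.1), RLE scaling, 2 other filters, no sex term, a block on the replicate number, a fit on the 8 libraries compared only, and fits without single libraries or without 12-week WT replicates 3 and 8.

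The members, the gene lists and the tests were chosen with earlier results of these data known. The lists were written from general knowledge, and Ddx58 is the symbol under which the files hold the sensor RIG-I. Named list genes are those past the threshold at 12 weeks with up to 3 of the largest log2 changes in each direction and a mean of at least 5 CPM. The genes most like a member that passed are its 3 nearest by the root mean squared difference of centred log2 CPM (prior count 2). Some list genes are not reported here. Other genes are named without regard to this rule and were chosen after their values were seen.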

Additional observations from a re-analysis of the deposited data

Results flagged for a closer look

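Irf4 in 12-week KO microglia had a single library, replicate 1, apart from the others of its group, at 0.202 CPM, with the remaining 3 libraries at 0. That library held 2 counts, and its gap to the nearest library made up the whole range of the group. Each of the 8 members was checked in each of the 4 groups, 32 checks in all. For continuous, normal values chance alone marks about 1 in 20 such groups. Here 3 libraries stood at 0, so any count in replicate 1 would have been marked, and that rate does not apply. The level of this library is below what a count of 0 allows in each of the other 3 libraries, which is 0.318 to 0.375 CPM.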

How the results depend on the processing

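Irf7 at 12 weeks passed in all 25 alternative fits and Irf9 in 23 of 25, with adjusted p of up to 0.0241 for Irf7 and 0.261 for Irf9. At 6 weeks Irf7 passed in 17 of 25. The number of members that passed at 6 weeks was 1, and it was 2 with DESeq2 (Irf7 and Irf9), 0 with limma-voom and 0 to 1 with single libraries left out. At 12 weeks it was 2, and it was 4 with DESeq2 (Irf1, Irf4, Irf7 and Irf9), 1 with the replicate block and 1 in the fit on the 8 libraries compared only (Irf7 both times), and 2 to 3 with single libraries left out. Without a filter on low counts 1 member passed for KO 12 against 6 weeks (Irf4), 1 for WT 12 against 6 weeks (Irf7) and 2 for the difference of the genotype effects (Irf4 and Irf7), where DESeq2 gave 1 (Irf4).

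Replicate numbers were shared between groups, and at each age KO and WT libraries of the same number had the same sex. The deviations of same-numbered libraries correlated at 0.0523 at most. A low correlation cannot show whether the numbers mark a shared origin, and the labels do not say what they mark. With the replicate block, 131 genes passed at 12 weeks, against 510 without it, and 123 against 149 at 6 weeks. Labels 5_6 and 8 occur only in single 12-week WT libraries, so the block fits these libraries exactly. The WT side of the 12-week comparison then rests on replicates 3 and 4. Whether 12-week calls were lost through the block itself or through fewer WT libraries was not tested. At 12 weeks the block gave Irf9 a log2 change of 0.59 (adjusted p = 0.261 in edgeR). It left 0 of the partners and targets of IRF8 and IRF4 and 0 of the negative regulators past the threshold at 12 weeks, so that Cybb, Ctss, Cx3cr1, Il12b, Usp18 and Isg15 lost their calls there, as did Zbp1, Stat2, Sting1, Oas2, Rsad2 and Cxcl10, the last also at 6 weeks. Over all genes, DESeq2 called 366 at 6 weeks and 1158 at 12 weeks, and the unfiltered fit 353 and 1073. With single libraries left out the 6-week count was 82 to 155. The 12-week count was 204 in the fit on that age alone, 307 without WT replicates 3 and 8 and 328 without KO replicate 2. Of the 23 tested targets of ISGF3 and IRF7, 8 to 23 rose at 12 weeks over the alternatives, 8 of them with the replicate block, and 6 to 18 at 6 weeks.

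Signs turned only for changes near 0 or with wide errors. Irf8 at 6 weeks was 0.0027 with the stricter filter and 0.0019 without 12-week WT replicates 3 and 8, and -0.058 to 0.043 with single libraries left out. For WT 12 against 6 weeks, Irf4 was 0.39 without the sex term, 0.55 with limma-voom and 0.66 without those 2 libraries (-0.71 to 0.56 with single libraries left out), Irf1 was 0.14 and Irf2 0.0093 with the replicate block, and Irf2 ran from -0.13 to 0.0070 with single libraries left out. Single libraries also turned Irf1 at 6 weeks (-0.027 to 0.21) and the difference of the genotype effects of Irf3 (-0.21 to 0.032). The cause of these changes was not tested. With TMM, RLE or DESeq2 scaling the median log2 change of all genes stayed between -0.03 and 0.01. Counts of up to 173 per library limit what can be said of Irf4.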

Other observations

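Irf2bp2 and Irf2bpl, which encode binding partners of IRF2, had 1076 to 3516 and 199 to 755 counts per library, and Irf2bp1 had 20 to 149. Irf2bp1 had log2 changes of -1.23 ± 0.48 at 6 weeks, where every KO library was below every WT library, and of -0.80 ± 0.48 at 12 weeks, and neither passed (adjusted p = 0.486 and 0.504 in edgeR). Irf2bp2 had log2 changes of 0.16 ± 0.16 at 6 weeks and -0.52 ± 0.16 at 12 weeks (adjusted p = 1.00 and 0.114 in edgeR).

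Among sensors, Ddx58, which encodes RIG-I, was higher in every 12-week KO library than in every 12-week WT library, with a log2 change of 1.51 ± 0.51 (adjusted p = 0.149 in edgeR). Ifih1, which encodes MDA5, had overlapping groups and a log2 change of 1.27 ± 0.83 (adjusted p = 0.561 in edgeR). Arg1, a marker of alternative activation, had 36 counts in the 12-week KO group and 0 in the 12-week WT group, and 174 counts in the 6-week KO group and 66 in the 6-week WT group.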
